A study of Mus musculus with 4 samples.

Results

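Immediate early genes were read out in kidneys of Th3 mice and control kidneys as 10 genes: the AP-1 subunits Fos, Fosb, Jun and Junb, the zinc-finger factors Egr1 and Egr2, the factor Atf3, the orphan nuclear receptor Nr4a1, the phosphatase Dusp1 and the stress-response gene Ier3. They were chosen by name, as every probe other than a control spot whose gene name in the scanner output is one of these symbols, which gave 11 probes of 41174 on the array (10 gene names of 27845): 1 probe for each gene and 2 for Junb. The Th3 strain models the anaemia beta-thalassemia: mice were made that lack both b-globin genes of the adult, those for beta-major and beta-minor. The control samples are labelled only as control kidney, and the zygosity of the deletion and the sex, age and strain background of either group are not given in the sources used here. Total RNA of 4 Th3 and 4 control kidney samples was hybridised in pairs, 1 Th3 and 1 control sample on each of 4 two-colour Agilent arrays. Arrays 1 and 2 had Th3 RNA in the dye Cy5 and control RNA in Cy3, and arrays 3 and 4 the reverse, so dye orientation and the kidneys of each pair of arrays cannot be told apart. The main fit has a term for the dye, so its p-values and intervals for Th3 rest on the spread within each pair of arrays. Differences between arrays 1 and 2 and arrays 3 and 4, of dye or of kidneys, are taken up by that term and left out of this spread. The labels do not say if each sample came from its own animal, and the spread within a pair could be technical.

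Immediate early genes are switched on within minutes of a stimulus from factors already present in the cell, without new protein synthesis. Growth factors, stretch and stress reach them through MAP kinases and calcium signals that act on the factors SRF, ELK and CREB at their promoters. Their products are mostly short-lived transcription factors that pass the signal on, and phosphatases such as Dusp1 that end it; in kidney they are known for their rise after ischaemia and tubular injury.

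The stretches of 250 bases before the gene start are shown for Nr4a1, Dusp1, Fos and Atf3, which stand for the 3 patterns seen below: higher in Th3, different between arrays, and lower in Th3. They are from RefSeq (GRCm38.p6), whose promoter table held 9 of the 10 genes, all but Egr1, and are written in the direction of the gene. Capitals mark the core of the CRE, the site that CREB and ATF factors bind, as TGACG or its reverse complement CGTCA. The windows are chr15:101266596-101266845 (+ strand) for Nr4a1, chr17:26508473-26508722 (− strand) for Dusp1, chr12:85473640-85473889 (+ strand) for Fos and chr1:191183334-191183583 (− strand) for Atf3.
Nr4a1: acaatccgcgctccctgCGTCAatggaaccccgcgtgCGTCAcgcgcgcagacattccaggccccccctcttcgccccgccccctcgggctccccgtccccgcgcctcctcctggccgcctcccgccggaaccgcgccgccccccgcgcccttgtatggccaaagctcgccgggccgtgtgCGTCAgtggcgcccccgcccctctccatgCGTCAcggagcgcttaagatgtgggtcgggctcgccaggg
Dusp1: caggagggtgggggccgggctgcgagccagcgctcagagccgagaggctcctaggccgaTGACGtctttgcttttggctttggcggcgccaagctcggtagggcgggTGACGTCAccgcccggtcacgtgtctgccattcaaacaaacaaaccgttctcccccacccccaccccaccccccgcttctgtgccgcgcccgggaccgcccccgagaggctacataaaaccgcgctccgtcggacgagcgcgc
Fos: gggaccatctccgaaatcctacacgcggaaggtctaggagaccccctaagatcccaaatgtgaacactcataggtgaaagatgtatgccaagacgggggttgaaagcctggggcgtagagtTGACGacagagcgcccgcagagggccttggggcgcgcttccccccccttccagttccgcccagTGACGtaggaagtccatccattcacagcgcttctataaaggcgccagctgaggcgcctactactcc
Atf3: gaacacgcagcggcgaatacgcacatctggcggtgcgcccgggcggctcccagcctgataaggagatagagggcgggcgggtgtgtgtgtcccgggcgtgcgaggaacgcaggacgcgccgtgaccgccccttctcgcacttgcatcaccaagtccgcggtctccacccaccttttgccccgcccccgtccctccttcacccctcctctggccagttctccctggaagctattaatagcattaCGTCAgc

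On both strands, TGACG stood in at least 1 window of 7 of 9 genes, against 17.8% of the 32851 windows of the same length in the table. Egr2 had several windows, some without the core, whereas the share over all windows counts each window apart. It lay 233, 213, 69 and 40 bases before the start of Nr4a1, 191, 143 and 140 before that of Dusp1, 129 and 66 before that of Fos, and 7 before that of Atf3. The full palindrome TGACGTCA, which overlaps the core, was found in Dusp1 alone among the 9, where it makes up the matches at 143 and 140 bases, and in 1.55% of all windows. The EGR motif GCGGGGGCG, the site that Egr1 and Egr2 bind, was found in Fosb and Nr4a1 (2.57% of all windows). The SRF-bound CArG box was found in the windows of Egr2 other than the most upstream (1.47% of all windows). The TATA box TATAAA was found in Fos, 33 bases before its start (12.4%). The AP-1 motif TGANTCA was in none of the 9 and in 6.75% of all windows. A match is a description of these letters only. Genes with the core were found on both sides of the comparison: Nr4a1 and Dusp1, which were higher in Th3, and Atf3, which was lower, each had at least 1 match.

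The immediate early genes did not move as a block. Nr4a1 and Dusp1 rose in Th3, by 1.82-fold and 1.69-fold, and Egr2 and Atf3 fell to 78.7% and 79.5% of control. Egr1 and both Junb probes had higher means that did not pass the test, Jun, Fosb and Ier3 had means near 0 on the log2 scale, and Fos went up on some arrays and down on others. In all, 4 of 11 probes passed (adjusted p under 0.05, by limma with Benjamini-Hochberg adjustment over 26403 probes), 2 in each direction. Of all probes tested, 18.2% passed, 9.29% higher and 8.93% lower in Th3. The median log2 ratio of Th3 over control was 0.11 over the 11 probes and 0.00 over all probes. These counts move with the fit: 1 of 11 passed without a dye term or with the pairs of arrays as a random block, and 2 with the channels taken apart.

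**Figure D1:**
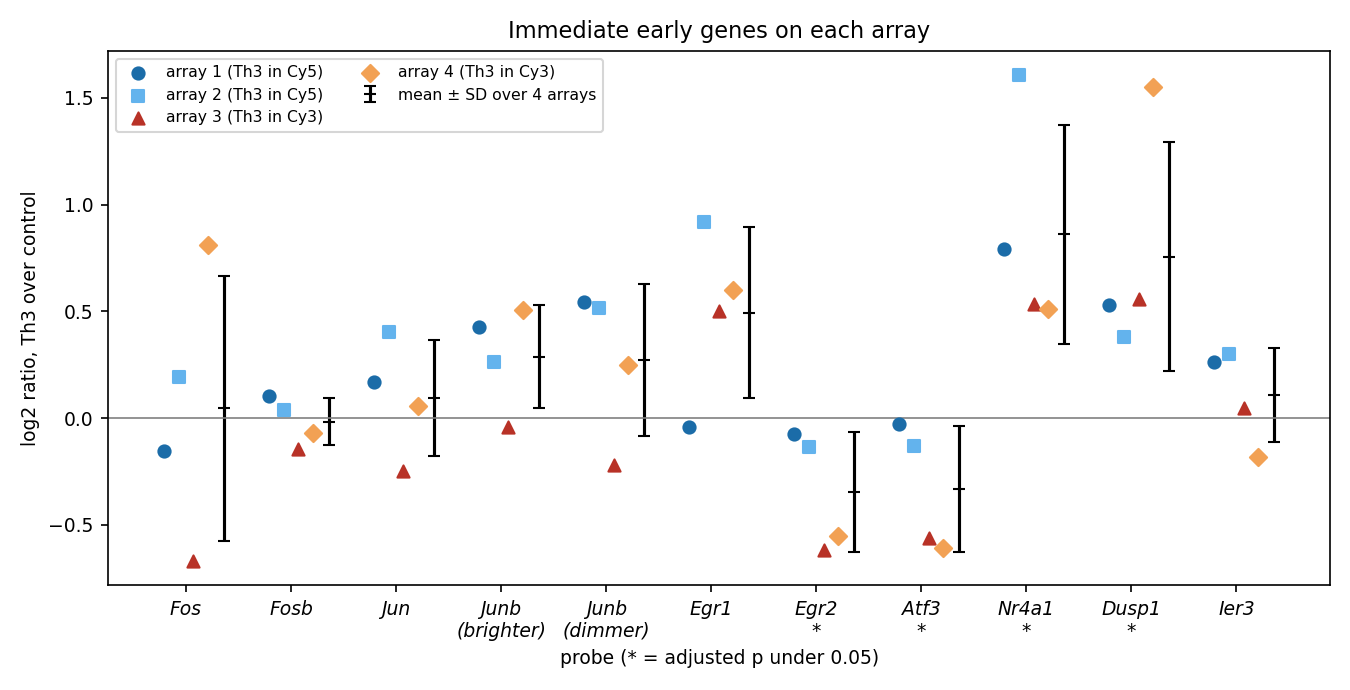
Log2 ratio of Th3 over control (vertical axis) for the 11 probes of the 10 genes, with a point for each of the 4 arrays and the mean ± SD beside them; an asterisk marks an adjusted p under 0.05. Nr4a1 and Dusp1 lie above 0 on every array and Egr2 and Atf3 below it, while Fos spans -0.67 to 0.81.

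All 11 probes were well above local background in both channels on all 4 arrays and passed the filter on dim probes. Of all probes on the array, 61.6% to 72.0% reached that level, depending on array and channel, and no spot was saturated. Across all probes, the ratios of arrays 1 and 2 correlated at 0.67, those of arrays 3 and 4 did so at 0.68, and arrays of different pairs gave 0.41 to 0.51 (a description over probes, which are not independent replicates). Of the 9 kidney markers, from podocyte, tubule and collecting duct, all 9 were measured, and 2 were lower in Th3 (10.2% of 17612 genes were lower). They were Slc34a1 (log2 ratio -0.44 ± 0.26, SD, n = 4, limma adjusted p = 0.00455) and Kap, which was far lower (-3.34 ± 0.32, SD, n = 4, limma adjusted p = 0.000187). In whole kidney, fewer cells of a type and less RNA per cell cannot be told apart.

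Among the AP-1 subunits, which pair as dimers on AP-1 sites, Fos had the widest spread of the 11 probes. Its log2 ratio was -0.15 on array 1, 0.19 on array 2, -0.67 on array 3 and 0.81 on array 4. Arrays 3 and 4, of the same dye orientation, thus gave the lowest and the highest value. The mean was 0.05 ± 0.62 (SD, n = 4), with a 95% interval of the fitted ratio from -0.48 to 0.57 and a limma adjusted p of 0.910. The probe, at chr12:86366053-86366112 (mm8, + strand), has 10 spots on each array, which measure the same labelled RNA again. The spots of array 3 that were not outliers (7) lay between -0.77 and -0.52, and the 10 spots of array 4 lay between 0.70 and 0.87. The SD between arrays was 9.80 times the pooled SD between spots of 1 array, which was 0.063. Repeat spots cover the error of printing and scanning only, not the spread between samples. An SD over arrays below that of Fos was found for 99.3% of all probes, whose median SD was 0.13. The signal of Fos was low, 1.74 to 4.47 times its local background. Without array 3 the Fos ratio was 0.42, and without array 4 it was -0.32, so that its direction rests on which array is left out. With 1 array left out, the fit meets the lone array of a dye orientation exactly. Adjusted p-values of such fits rest on the spread within the other pair.

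**Figure D2:**
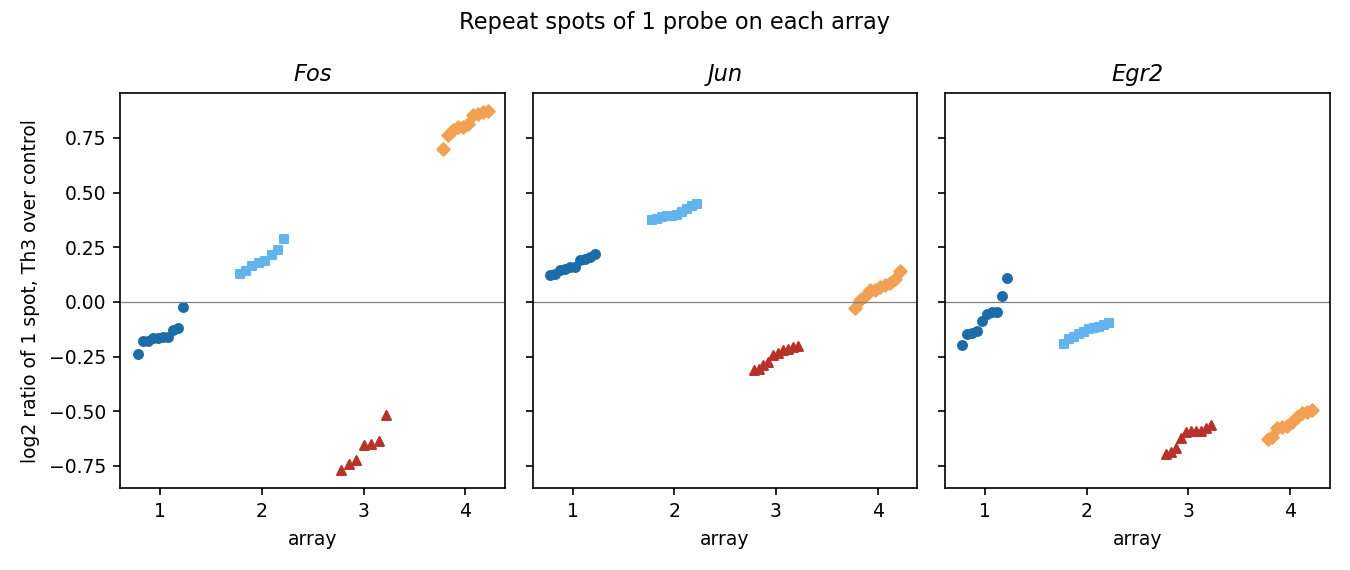
Log2 ratio of Th3 over control (vertical axis) of each single spot of the Fos, Jun and Egr2 probes, which are printed 10 times on every array (horizontal axis), sorted within each array. The spots of 1 array lie close together, and the arrays differ, most for Fos, where the spots of array 3 end at -0.52 and those of array 4 start at 0.70.

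Set against the other samples of its dye, the Fos signal was highest in the Th3 sample of array 4 and the control sample of array 3. These dye-centred log2 signals, which subtract the mean of the 4 samples in the same dye, were -0.47, 0.00, -0.07 and 0.63 in the Th3 samples of arrays 1 to 4. The control samples stood at -0.34, -0.22, 0.62 and -0.16. High and low Fos samples were thus found in both groups, and the ranges of the groups overlapped almost wholly.

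Jun, the main partner of Fos, gave log2 ratios of 0.17, 0.40, -0.25 and 0.06 on arrays 1 to 4. Array 3 was the lowest, as for Fos, and array 2 the highest. The mean was 0.10 ± 0.27 (SD, n = 4), with a 95% interval from -0.08 to 0.27 and a limma adjusted p of 0.411. The probe (chr4:94541191-94541250, mm8, − strand) also has 10 spots per array, whose SD of 0.026 to 0.048 within an array was well under the SD of 0.27 between arrays. Fosb, a close relative of Fos, gave 0.10, 0.04, -0.14 and -0.07, the narrowest spread of the 11 probes. It was positive on arrays 1 and 2 and negative on arrays 3 and 4. Its mean was -0.02 ± 0.11 (SD, n = 4), with an interval from -0.14 to 0.11 and a limma adjusted p of 0.857. The Fosb probe (chr7:18461650-18461709, mm8, − strand) was only 1.40 to 1.94 times above its local background, and its mean ratio was 0.04 without background subtraction, on the other side of 0.

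Junb, the Jun relative that can oppose it, was measured by 2 probes that gave alike results. Their positions, chr8:87867087-87867146 and chr8:87867049-87867108 (mm8, − strand), overlap, and they share 22 of 60 bases, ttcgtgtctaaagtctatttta, so they are not independent measurements. The brighter probe gave 0.43, 0.26, -0.04 and 0.51 on arrays 1 to 4, and the dimmer probe 0.54, 0.52, -0.22 and 0.25. Both were positive on arrays 1, 2 and 4 and negative on array 3. The brighter probe's mean was 0.29 ± 0.24 (SD, n = 4; interval 0.06 to 0.51) and the dimmer one's 0.27 ± 0.35 (SD, n = 4; interval 0.07 to 0.47). Neither passed the test, with limma adjusted p-values of 0.0836 and 0.0676. Without array 3 the ratios were 0.43 for the brighter probe and 0.39 for the dimmer one. Without array 4 the ratios were lower, at 0.15 for the brighter probe and 0.15 for the dimmer one.

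The EGR factors, zinc-finger proteins that bind the same GC-rich sites, differed in sign. Egr1, a direct readout of growth-factor and SRF signalling, gave log2 ratios of -0.04, 0.92, 0.50 and 0.60 on arrays 1 to 4. Its ratio was near 0 on array 1 and positive on arrays 2, 3 and 4. The mean was 0.49 ± 0.40 (SD, n = 4), or 1.41-fold, with an interval from 0.15 to 0.84 and a limma adjusted p of 0.0613. Its size moved with single arrays: without array 1 the ratio was 0.73, and without array 2 it was 0.25. On array 1 both samples were low, at -0.80 (Th3) and -0.81 (control) from the mean of their dye. The other Th3 samples stood at 0.76, 0.55 and 0.48, above all other control samples, at -0.21, 0.11 and -0.07.

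Egr2, known also for its roles in Schwann cells and in macrophages and lymphocytes, fell. Its log2 ratios were -0.07, -0.14, -0.62 and -0.55 on arrays 1 to 4. They were negative on every array but small on arrays 1 and 2 (mean -0.10) and larger on arrays 3 and 4 (mean -0.59). The fitted ratio was -0.34 ± 0.28 (SD, n = 4), 78.7% of control, with an interval from -0.47 to -0.22 and a limma adjusted p of 0.00893. The difference between the pairs of arrays, 0.48, did not pass its own test (dye term, limma adjusted p = 0.120). None of the 11 probes passed that test (0 of 11), against 0.053% of all probes. The 10 spots of the probe (chr10:66937367-66937426, mm8, + strand) ran from -0.20 to 0.11 on array 1 and from -0.70 to -0.56 on array 3. The Egr2 signal was 1.93 to 4.89 times its local background. The call was lost without a dye term (limma adjusted p = 0.0905), with the pairs of arrays as a random block (0.107) and with the channels taken apart (0.0605). With the scanner's processed signals the Egr2 ratio was larger, -0.63 (limma adjusted p = 0.0145).

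Atf3, a CREB-family factor induced by stress, fell as Egr2 did. It gave -0.03, -0.13, -0.56 and -0.61 on arrays 1 to 4, again near 0 on array 1 and lowest on arrays 3 and 4. The mean was -0.33 ± 0.29 (SD, n = 4), 79.5% of control, with an interval from -0.45 to -0.21 and a limma adjusted p of 0.0105. The pairs differed by 0.50 (dye term, limma adjusted p = 0.114). Its probe lies at chr1:192871283-192871342 (mm8, − strand) and read 3.05 to 6.99 times its local background. The Atf3 call was lost without a dye term (limma adjusted p = 0.110) and with the random block (0.13). Without array 2 the Atf3 ratio was -0.30. With the processed signals the Atf3 ratio was -0.50 (limma adjusted p = 0.0159).

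Macrophage and lymphocyte markers were lower in Th3 together with Egr2 and Atf3. Of 9 macrophage and myeloid markers 8 were tested and 7 were lower in Th3 (10.2% of 17612 genes were lower, each by its brightest kept probe), with list medians of -0.07, -0.25, -0.64 and -0.87 on arrays 1 to 4. Of 9 lymphocyte markers 8 were tested and 5 were lower, with medians of -0.02, -0.07, -0.71 and -0.59. Both list medians were thus near 0 on array 1 and lowest on arrays 3 and 4, as Egr2 and Atf3 were. Single genes were scattered on array 1, from -0.58 (Ccr2) to 0.53 (Adgre1) and from -1.33 (Jchain) to 0.21 (Lck). The median of the markers of injured tubule was also lowest on arrays 3 and 4, at -0.28 and -0.37. Among the kidney markers, Umod had this order (0.43, 0.28, -0.68 and -0.95 on arrays 1 to 4), while Slc12a3 did not (-0.33, 0.18, 0.43 and 0.02). Arrays 3 and 4 share a dye orientation, so this order cannot be told apart from a difference of dye or of the kidneys of a pair. The mean dye-centred level of the macrophage list ran from -0.47 to -0.07 in the Th3 samples and from 0.14 to 0.34 in the controls. That of the lymphocyte list ran from -0.61 to -0.09 and from -0.03 to 0.64. Itgam and Cd79a did not pass the filter on dim probes. The part of these cells in the Egr2 and Atf3 results was not tested.

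Nr4a1, an orphan nuclear receptor of the NR4A family, had the largest mean ratio of the 11 probes. Its log2 ratios were 0.79, 1.61, 0.53 and 0.51 on arrays 1 to 4. All 4 were above 0.5, and array 2 was the highest. The mean was 0.86 ± 0.51 (SD, n = 4), or 1.82-fold, with an interval from 0.56 to 1.16 and a limma adjusted p of 0.00854. The mean of arrays 1 and 2 was 1.20, that of arrays 3 and 4 was 0.52, and their difference was 0.68 (dye term, limma adjusted p = 0.269). Nr4a1 passed under all 16 alternative settings tried, with ratios from 0.66 to 1.06. Its signal was 24.6 to 120 times local background at the probe's position, chr15:101102674-101102733 (mm8, + strand). Even so, the dye-centred signals of the groups overlapped: the Th3 samples stood at -0.42, 0.39, 0.73 and 1.02 and the controls at -0.87, -0.88, -0.14 and 0.17. The Th3 sample of array 1 lay below the control samples of arrays 3 and 4. The dye-centred signals of the 4 Th3 and 4 control samples were free of overlap for none of the 11 probes (0 of 11), against 25.5% of all probes.

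**Figure D3:**
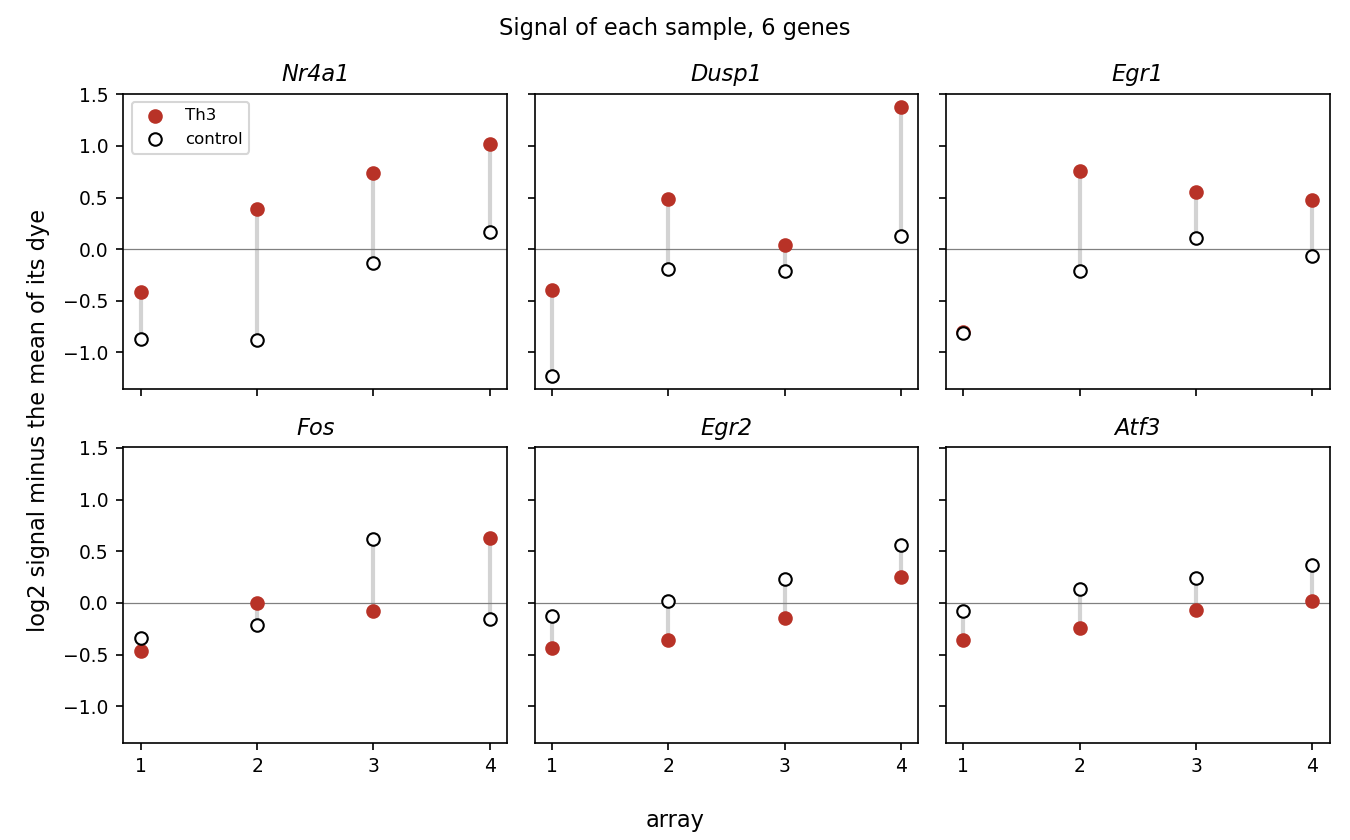
Dye-centred log2 signal (vertical axis; each sample's log2 signal minus the mean of the 4 samples in its dye) of Nr4a1, Dusp1, Egr1, Fos, Egr2 and Atf3 in each Th3 sample (filled) and control sample (open), by array (horizontal axis), with a grey line joining the samples of 1 array. The Nr4a1 and Dusp1 pairs have Th3 above control on every array and the Egr2 and Atf3 pairs below, while the samples of array 1 lie lowest in both groups for all of these genes but Nr4a1, whose lowest control is that of array 2; since each dye is centred apart, the length of a line is not the ratio of its array.

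Dusp1, which dephosphorylates MAP kinases and so ends the signal that induces it, gave log2 ratios of 0.53, 0.38, 0.56 and 1.55 on arrays 1 to 4. It was positive on every array, and array 4 stood apart from the other values. The mean was 0.76 ± 0.54 (SD, n = 4), or 1.69-fold, with an interval from 0.40 to 1.12 and a limma adjusted p of 0.0200. Without array 4 the ratio was 0.51. Arrays 3 and 4 had the higher mean (1.06 against 0.46), the reverse of Nr4a1, and the difference between pairs did not pass (dye term, limma adjusted p = 0.389). The dye-centred signals were -0.40, 0.49, 0.04 and 1.38 in the Th3 samples and -1.23, -0.20, -0.22 and 0.12 in the controls. The probe is at chr17:26233451-26233508 (mm8, − strand), with a signal 13.3 to 74.2 times local background. The Dusp1 call was lost without a dye term (limma adjusted p = 0.0501), with the random block (0.0711) and with the channels taken apart (0.0705).

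Ier3, a stress-induced regulator of cell survival, gave 0.26, 0.30, 0.05 and -0.18 on arrays 1 to 4. It was highest on arrays 1 and 2 and negative on array 4. The mean was 0.11 ± 0.22 (SD, n = 4), with an interval from -0.03 to 0.25 and a limma adjusted p of 0.251. Its probe lies at chr17:35430636-35430695 (mm8, + strand). The Egr1 probe lies at chr18:34990715-34990774 (mm8, + strand). The array annotation gives positions only, and which exon or UTR a probe lies in was not analysed here.

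No array was high or low for all of the immediate early genes. Array 3 was the lowest for Fos, Jun, Fosb, Egr2 and both Junb probes, yet Nr4a1, Dusp1 and Egr1 were at 0.53, 0.56 and 0.50 there. Array 4 was the highest for Fos, Dusp1 and the brighter Junb probe and the lowest for Nr4a1, Atf3 and Ier3. The same sign on all 4 arrays was seen for 4 of 11 probes, the 4 that passed the test, against 36.3% of all probes.

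**Figure D4:**
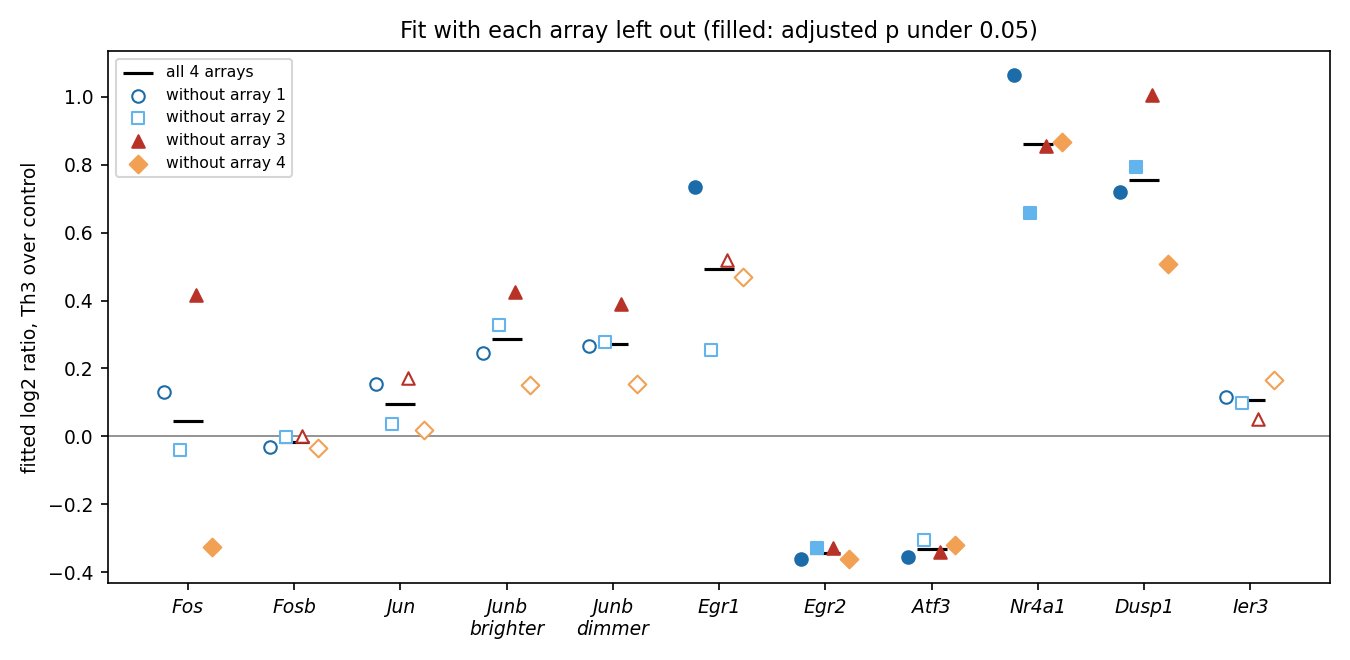
Fitted log2 ratio of Th3 over control (vertical axis) for the 11 probes with all 4 arrays (bar) and with each array left out (points; filled where the adjusted p is under 0.05). Fos moves from 0.42 without array 3 to -0.32 without array 4, while Nr4a1 and Dusp1 stay above 0.5 throughout. With 1 array left out, the lone array of a dye orientation is fitted exactly, so the adjusted p rests on the spread within the other pair.

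In the wider pathway, the genes that passed in the 4 lists, in the order given here, were 5 higher and 0 lower, 2 and 0, 2 and 1, and 4 and 2. No direction was tested over a list. Genes were counted by the brightest kept probe of each gene, over which 20.6% of 17612 genes passed, 10.4% higher and 10.2% lower. Beside that share, 5 of 16 further factors, 2 of 16 feedback inhibitors, 3 of 18 upstream genes and 6 of 16 secreted or delayed targets passed. The lists are small, and whether any of them departs from the share was not tested. Of 21 further immediate early factors and regulators, 16 were tested, 5 were higher, 0 were lower and 11 did not pass, with a median log2 ratio of 0.15. The largest were Maff, a small bZIP factor (0.76 ± 0.37, SD, n = 4), and Myc, a regulator of growth (0.75 ± 0.39, SD, n = 4), with limma adjusted p-values of 0.0129 and 0.0144. Both were positive on all 4 arrays. Fosl1, Egr3, Egr4, Nr4a3 and Npas4, relatives of the 10 genes, did not pass the filter on dim probes.

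Of 17 feedback inhibitors, which include other MAP kinase phosphatases and the Sprouty proteins, 16 were tested, 2 were higher and 0 lower, with a median of 0.02. They were Errfi1, an inhibitor of the EGF receptor (0.63 ± 0.25, SD, n = 4; limma adjusted p = 0.00791), and Nfkbia, the inhibitor of NF-kappaB (0.24 ± 0.11, SD, n = 4; limma adjusted p = 0.0242). Of 20 upstream kinases and promoter-binding factors, 18 were tested, 2 were higher and 1 lower, with a median of 0.05. The ETS factor Elk3 (0.34 ± 0.05, SD, n = 4) and the kinase Rps6ka3 (0.19 ± 0.10, SD, n = 4) were higher, and the MAP kinase kinase Map2k2 was lower (-0.25 ± 0.03, SD, n = 4), with limma adjusted p-values of 0.00850, 0.0476 and 0.0212.

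Of 20 secreted and delayed early targets, 16 were tested, 4 were higher and 2 lower, with a median of 0.06. Sgk1, a kinase that acts on sodium transport (0.67 ± 0.47, SD, n = 4; limma adjusted p = 0.0319), and the matricellular protein Ccn2 (0.63 ± 0.25, SD, n = 4; limma adjusted p = 0.0102) were higher. The protease inhibitor Timp1 (-0.29 ± 0.31, SD, n = 4; limma adjusted p = 0.0164) and the growth factor Hbegf (-0.26 ± 0.16, SD, n = 4; limma adjusted p = 0.0431) were lower. Timp1 stood at -0.01 and -0.04 on the first pair of arrays and at -0.62 and -0.48 on the second, the order seen for Egr2 and Atf3. With the pairs of arrays as a random block, the passing genes of the 4 lists, in the order given here, fell to 3, 1, 1 and 2.

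**Figure D5:**
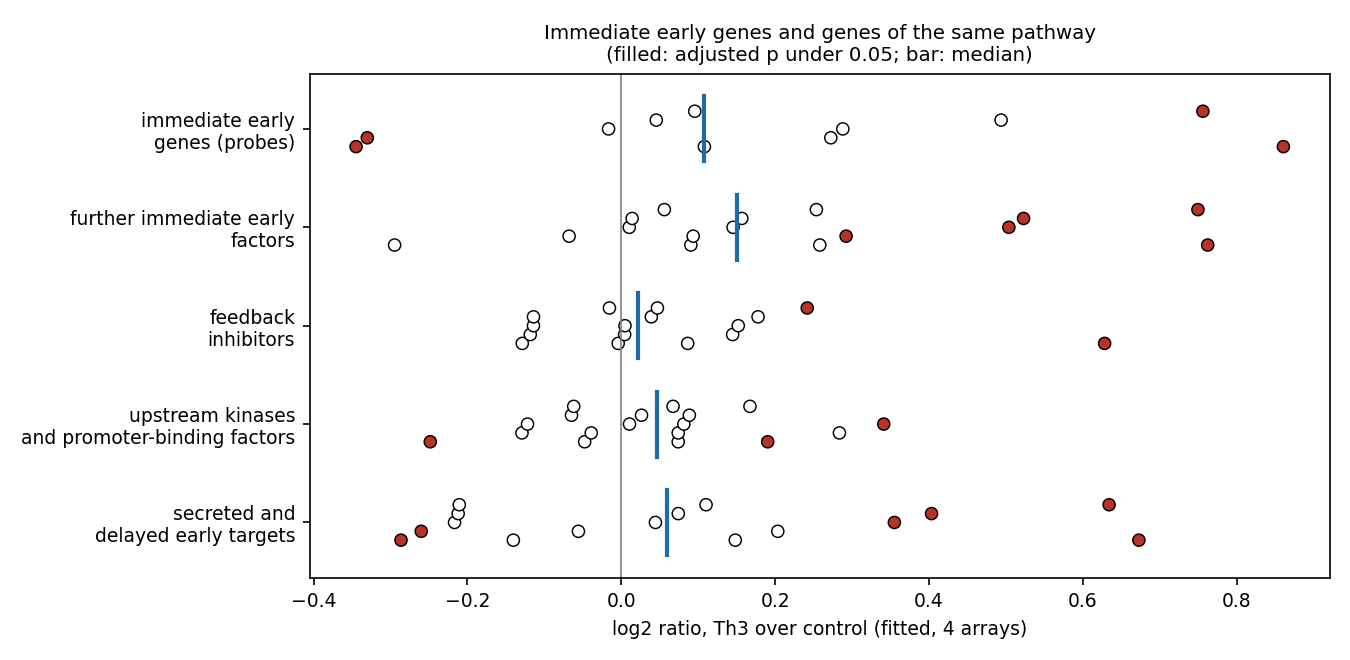
Fitted log2 ratio of Th3 over control (horizontal axis) for the 11 immediate early probes and the tested genes of 4 pathway lists (rows), 1 point per probe or gene, filled where the adjusted p is under 0.05, with a bar at the median of each row. Filled points lie on both sides of 0 for the immediate early genes, with Nr4a1 at 0.86 and Egr2 at -0.34, and the row medians run from 0.02 to 0.15.

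The other marker lists, set beside Nr4a1 and Dusp1, gave calls in both directions. Over all 17612 genes, each by its brightest kept probe, 10.4% were higher and 10.2% lower, and no list was tested against these shares. Of 6 liver markers 5 were tested, 3 were higher and 1 lower, with medians of 1.14, 0.17, 0.48 and 0.66 on arrays 1 to 4. Of 6 neutrophil markers 4 were tested and 2 were higher, with medians of 0.06, 0.09, 0.51 and 0.21. Of 8 markers of injured tubule, a state in which immediate early genes are known to rise, 1 was higher and 3 were lower, with medians of 0.37, 0.15, -0.28 and -0.37. Endothelial markers had 1 of 7 higher, smooth muscle and fibroblast markers 2 higher and 3 lower of 7, and adrenal markers 0 of 3 tested. Adipose markers had 1 higher and 2 lower of 6 tested, with medians of 0.40, 0.98, 0.28 and -1.10. These medians were highest on array 2 and lowest on array 4. Nr4a1 was also highest on array 2 and lowest on array 4, though close on arrays 3 and 4 (0.53 and 0.51). Dusp1 was highest on array 4. Ucp1, the uncoupling protein of brown fat, was the lowest of the adipose markers (-3.40 ± 0.93, SD, n = 4; limma adjusted p = 0.00213). The part of these tissues and cells in the Nr4a1 and Dusp1 results was not tested.

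The mean profile of the 10 genes over the 8 dye-centred signals was -0.30, 0.06, 0.13 and 0.50 in the Th3 samples of arrays 1 to 4 and -0.40, -0.22, 0.10 and 0.14 in the controls. It was thus lowest in both samples of array 1 and highest in both samples of array 4. By Pearson correlation over these 8 samples, the genes outside the set with the most similar profile were Ola1 (0.977), Nubp1 (0.958), Olfr1218 (0.956), Rlim (0.955), Rdh16 (0.955), Tpmt (0.948), Zfp36l2 (0.947), Gdf15 (0.945), Agt (0.945) and Klf6 (0.944). Out of 17612 genes, clone names, predicted genes and genes without a value in every sample were passed over, and the 10 are the highest of the rest. The samples of 1 array share a hybridisation, and the values are a description only. Of these, Klf6 is itself on the list of further immediate early factors.

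In the authors' deposited table, Nr4a1 had a signed fold of 1.845 with an adjusted p of 0.0272, and Dusp1 1.704 with 0.0420. In the authors' deposited table Atf3 stood at -1.361 with an adjusted p of 0.0626, and Egr1 at 1.465 with 0.0735. Egr2 is listed there in 10 rows, with adjusted p-values from 0.0274 to 0.118, and Fos in 10 rows with 0.585 to 0.902 (the authors' deposited table). Nr4a1 and Dusp1 were thus under 0.05 in both sources, Egr2 was so for only some of its rows in the authors' deposited table, and Atf3 only in the fit made here.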

How the data were processed

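Per the file headers, Agilent Feature Extraction (version 9.5.3.1) gave the intensity of each spot and of its local background, not normalized, on array design 014868 with annotation on mouse build mm8. The deposited scanner files also hold a processed intensity, with background subtracted and dyes balanced by the software, and a log10 ratio. This ratio was checked against Cy5 over Cy3 of the processed intensities and lay within 0.01 of it for 82.0% of values. Which dye held Th3 was taken from the labels. The authors deposited a table of log2 ratios by array, a signed fold, taken as a score, and an adjusted p-value, whose methods are not given in the sources used here.

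In R 4.3.3, with limma 3.58.1 and the data.table package (version 1.17.8), signals were corrected by normexp (offset 50) and normalized within arrays by loess with a span of 0.3 and 4 iterations, in which control spots and outliers had weight 0. The 43379 spots that are not controls were averaged to 41174 probes, leaving out at most 186 outlier spots per array. A probe was kept if well above background in the Th3 channel or in the control channel on all 4 arrays, with values on at least 3, which left 26403. Log2 ratios were fitted by lmFit and eBayes with terms for the dye and for Th3 (2 residual and 4.37 prior degrees of freedom), with Benjamini-Hochberg adjustment, and adjusted p-values in all parts are from limma. The scripts were tested on simulated data. The number of arrays limits the precision. Dye-centred signals were taken after Aquantile. The arrays lie on 1 slide and were scanned on 1 date, so no slide or scan batch arises.

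The 10 genes, the pathway and marker lists and the tests were chosen with earlier results of these data known. Every probe of the 10 genes is named. From each pathway list the 2 largest increases and the 2 largest decreases that passed, or fewer, are named, and the 10 genes with the most similar profile. Names were matched through RefSeq (GRCm38.p6): 23374 probes by accession, 6733 by symbol and 2919 by synonym, and 8148 kept the file's name.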

Additional observations from a re-analysis of the deposited data

Results flagged for a closer look

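The Dusp1 ratio on array 4, 1.55 on the log2 scale, stood apart from the other 3 arrays, which lay between 0.38 and 0.56. Its gap to the next value was 0.848 of the whole range of the 4 arrays, above Dixon's critical value for 4 values. Chance gives such a gap in about 1 in 20 groups, and 11 probes were looked at.

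Fosb was above 0 on arrays 1 and 2 and below 0 on arrays 3 and 4, a difference of 0.18 between the means of the pairs. The dye term, which tests this difference, did not pass (limma adjusted p = 0.457), and its signal was close to local background.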

How the results depend on the processing

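The ratios of Nr4a1, Dusp1, Egr1, Egr2, Atf3, Jun, Ier3 and both Junb probes kept their sign under every alternative that gave a value. Nr4a1 passed in 16 of 16, and Dusp1, Egr2 and Atf3 in 13 of 16 each. These settings include the fits that left out 1 array. Fosb changed sign without background subtraction (0.037), with Agilent's processed signals (0.12), with the authors' deposited log2 ratios (0.069) and without array 3 (0.0023), with a range of -0.035 to 0.0023 over the 4 fits that left out 1 array. Fos did so with median centring in place of loess (-0.024), without array 2 (-0.04) and without array 4 (-0.32), with a range of -0.32 to 0.42 over those fits. Egr1 also passed with an intensity trend and robust variances (limma adjusted p = 0.0486) and with the authors' deposited ratios (0.0476), and the Junb probes with median centring (0.0403 and 0.0422).

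Of the immediate early probes, 4 passed; 1 did without a dye term, 1 with the pairs of arrays as a random block (consensus correlation 0.144), 2 with separate channels, and 3 to 7 with 1 array left out. Of all probes 4812 passed; 2622 did without a dye term, 1733 with the block, 7745 with separate channels, and 2245 to 5194 with 1 array left out. With 1 array left out, the fit met the lone array of a dye orientation exactly, and this array was assumed to vary like the others. The variance came from the other pair, so the counts of those fits do not measure the spread of the lone array. Median centring gave 62.0% of passing probes higher in Th3, against 51.0% with loess. The dye term passed for 14 probes; for 5 with processed signals, 0 with trend and robust variances, and 17331 with median centring (7 of the 11 immediate early probes, against 0). Without a dye term 1 feedback inhibitor and 3 secreted or delayed targets passed, against 2 and 6; with the block 3 further factors, 1 feedback inhibitor, 1 upstream gene and 2 secreted or delayed targets passed, against 5, 2, 3 and 6. The cause was not tested.

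Signals of Fos, Fosb and Egr2 close to local background limit their ratios. Every fit here is paired by array, since a ratio sets a Th3 sample against the control of its own array, and the separate-channel fit kept the array as a block.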
